A study of Rattus norvegicus with 24 samples.

Results

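The miR-99/100 and miR-125 families were followed in peripheral blood mononuclear cells (PBMC) of female Wistar rats. The 6 members were chosen by name: rno-miR-99a, rno-miR-99b and rno-miR-100 of the miR-99/100 family, and rno-miR-125a-5p, rno-miR-125a-3p and rno-miR-125b-5p of the miR-125 family. Each has a row of its own among the 677 rat miRNAs of the one-colour Agilent array, of which 24 were hybridised. The samples form 12 groups of 2 arrays. Healthy animals (NOCIA, called NORA in the labels) and animals with collagen-induced arthritis (CIA, called RA) were sampled before therapy (T0). Collagen-induced arthritis is a model of rheumatoid arthritis raised by immunisation with collagen. Arthritic animals were then sampled 1 hour and 34 days into one of 4 arms. MS (called AP) is mechanical stimulation with a needle under the skin, MTX is methotrexate, PLA is the saline placebo injected in place of MTX, and ANE is isoflurane in place of the ether that the MS, MTX and PLA animals breathed at blood sampling. Untreated NOCIA animals were sampled at both of these times too. Animals were killed at the blood draw, so no animal gave 2 time points, and the labels give no age. The labels of NOCIA at 34 days hold a line that says 1 hour, and the time in their title, 34 days, was taken. Nothing in the labels says whether the replicates of a group came from different animals, so the p-values measure only the spread between these samples.

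A microRNA pairs with its target messages mainly through its seed, bases 2 to 8, and so lowers their translation and stability. The miR-125 family is the vertebrate counterpart of lin-4 of the worm, and its members are known for roles in blood stem cells, in B and myeloid cells and in leukaemia. The miR-99/100 family is known to repress Mtor, the kinase that couples growth to nutrients. In vertebrate genomes the families lie together, with a let-7 miRNA between them, in 3 clusters that arose by duplication, and cluster members may be cut from a common transcript. Each hairpin gives a 5p and a 3p strand, of which one is usually kept in larger amount.

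The sequences show which members can share targets and which share a cluster, and the capitals mark the seed. They were taken from RefSeq on the rat assembly GRCr8, and 5 of the 6 members had a mature entry there. RefSeq adds a 5p suffix to names that the array writes without it. The miR-99/100 members share the seed ACCCGUA.
rno-miR-99b: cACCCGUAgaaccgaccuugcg
rno-miR-100: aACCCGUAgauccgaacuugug
The main strands of miR-125a and miR-125b share the seed CCCUGAG, and the other strand of miR-125a has an unrelated one.
rno-miR-125a-5p: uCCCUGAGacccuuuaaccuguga
rno-miR-125b-5p: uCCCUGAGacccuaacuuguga
rno-miR-125a-3p: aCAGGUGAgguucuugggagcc
Counted from the 5′ end, miR-99b differs from miR-100 at 4 of 22 positions (A1C, U11A, A16C and U21C, with the base of miR-100 first). Set position by position without a gap, miR-125b-5p differs from miR-125a-5p at 7 of the 22 positions that both have (U14A, U15A, A16C, A17U, C18U, C19G and U22A, with the base of miR-125a-5p first). miR-125a-5p is 24 bases long, and its extra bases shift the positions after them. The 7 are therefore not 7 separate substitutions. All these differences lie outside the seeds. On the plus strand of chromosome 1 the miR-99b strand lies at chr1:67350070-67350091, let-7e at chr1:67350243-67350264, miR-125a-5p at chr1:67350689-67350712 and miR-125a-3p at chr1:67350727-67350748, and that cluster spans 696 bases. On chromosome 11 the genes of miR-99a, let-7c-1 and miR-125b-2 span 45257 bases, with miR-125b-5p at chr11:29732588-29732609. On chromosome 8 the genes of miR-100, let-7a-2 and miR-125b-1 span 51828 bases, with miR-100 at chr8:50798307-50798328. The array reads miR-125b-5p, let-7a and let-7c each as a single miRNA, so signal from their different genes cannot be told apart.

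The level of a miRNA is given as log2 of its total intensity after scaling each array to a common 75th percentile, with a floor at 2.53. miR-99a, miR-125a-5p, miR-125a-3p and miR-125b-5p were detected on all 24 arrays. miR-99b was detected on 8 arrays and on both arrays of 2 groups only, ANE at 1 hour and MS at 34 days. miR-100 was detected on 1 array, PLA at 1 hour replicate 1, where its level was 3.46, and was not tested. Of 14 fixed relatives (cluster partners, seed relatives and passenger strands) 13 had a row on the array. Of these, let-7a, let-7c, let-7e and miR-10a-5p were detected on all 24 arrays. No array detected 7 of them, among them miR-351, which shares the miR-125 seed, miR-10b, and the passenger strands miR-99a*, miR-99b* and miR-100*. The passenger strand miR-125b-3p was detected on 17 arrays. Each array detected between 145 and 207 miRNAs, and none had a saturated spot. The members were dim, and the number of arrays limits the precision. Before scaling their detected totals ran from 6.89 to 221, against 1731 to 24996 for let-7c and let-7a.

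The total of a miRNA counts only those of its probes that were called detected, and for dim members this number changed from array to array. miR-99a was summed over both of its probes on 22 arrays and over 1 on ANE at 1 hour replicate 1 and MS at 34 days replicate 1. miR-125a-5p was summed over 1 of 2 probes on 10 arrays and miR-125b-5p on 12. miR-125a-3p was summed over all 4 probes on 20 arrays, over 3 on CIA T0 replicate 2 and NOCIA at 34 days replicate 1, over 2 on NOCIA T0 replicate 2 and over 1 on NOCIA T0 replicate 1. Where this moves a member change with an unadjusted p under 0.05 or a fold over 2, the value with all probes summed is also given. Differences of miR-10a-5p, differences between changes and the flagged changes of miR-125b-5p from CIA T0 are given with detected probes only. The sum of all probes was chosen as a setting after the data were seen.

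All 6 of the mononuclear-cell markers that the array holds (miR-142-3p, miR-142-5p, miR-150, miR-342-3p, miR-223 and miR-146a) were detected on all 24 arrays. The red-cell miRNAs miR-451 and miR-144 were also detected on all arrays, with a summed scaled intensity from 2363 to 37545. Of 6 markers of stroma and vessel wall, miR-143 was detected on all arrays, miR-145 on 5, miR-199a-3p on 2 and miR-214, miR-199a-5p and miR-10b on none. The muscle miRNAs miR-1, miR-133a and miR-206 were detected on none. The liver miRNA miR-122 was detected on 9 arrays. Its scaled intensity was 212 and 217 in NOCIA T0 and 43.1 and 497 in ANE at 1 hour. In the other groups it was at most 19.1, and no array of CIA T0 or MS detected it. In such bulk samples fewer cells of a type and less RNA per cell cannot be told apart. The arrays lay on 3 slides of 8, each group on 1 slide. Slide 1 held ANE at 1 hour and the MS, MTX and PLA groups at 34 days. Slide 2 held both T0 groups with NOCIA and ANE at 34 days, and slide 3 held NOCIA, MS, MTX and PLA at 1 hour. Replicate 1 of MS at 1 hour, of ANE at 1 hour and of MS at 34 days were the lowest arrays for miR-99a, as given next, and are called the arrays that stood apart. The first and last of these also had the lowest miR-150 of all arrays (10.26 and 9.55, against 11.65 to 13.47 on the others) and the lowest scale factors (0.452 and 0.456).

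miR-99a was the member that varied most. Before therapy it read 6.57 and 6.64 in NOCIA and 6.59 and 6.55 in CIA. At 1 hour it read 6.33 and 7.15 in NOCIA, 7.46 and 6.53 in MTX, 7.82 and 6.46 in PLA, 3.96 and 5.29 in MS and 3.86 and 6.0 in ANE. At 34 days it read 5.68 and 5.79 in NOCIA, 5.18 and 6.48 in MTX, 7.16 and 6.50 in PLA, 3.34 and 6.07 in MS and 6.43 and 5.93 in ANE. The T0 arrays lay close together, and both MS groups lay below both PLA groups at the same time without overlap. The share of all miRNAs without overlap there was not counted. In limma, 9.52% of all miRNAs had an unadjusted p under 0.05 in MS against PLA at 1 hour and 40% at 34 days. The 3 lowest arrays, replicate 1 of MS at 34 days, ANE at 1 hour and MS at 1 hour (3.34 to 3.96), lay below the other 21 (from 5.18). The group means ran from 7.14 in PLA at 1 hour to 4.62 in MS at 1 hour, and 10 of the 11 neighbouring groups in that order overlapped. The pooled spread within groups (SD 0.90) equalled the SD of the group means (0.90).

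miR-125b-5p, the cluster partner of miR-99a, varied less. It read 6.70 and 6.76 in NOCIA T0 and 6.50 and 6.50 in CIA T0. At 1 hour it read 6.34 and 7.24 in NOCIA, 7.54 and 6.70 in MTX, 7.72 and 6.97 in PLA, 6.10 and 6.03 in MS and 5.37 and 6.56 in ANE. At 34 days it read 6.63 and 6.41 in NOCIA, 6.50 and 6.85 in MTX, 7.21 and 6.46 in PLA, 5.31 and 6.44 in MS and 6.25 and 6.97 in ANE. PLA at 1 hour had the highest mean (7.35) and MS at 34 days the lowest (5.87), and 10 of 11 neighbouring groups overlapped. The low arrays of ANE at 1 hour and MS at 34 days are those that were low in miR-99a.

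miR-125a-5p, cut from the chromosome 1 cluster, had another order. It read 4.94 and 5.15 in NOCIA T0 and 4.36 and 4.78 in CIA T0. At 1 hour it read 4.97 and 5.31 in NOCIA, 5.55 and 4.59 in MTX, 5.08 and 5.76 in PLA, 5.98 and 5.30 in MS and 5.79 and 5.52 in ANE. At 34 days it read 5.73 and 5.33 in NOCIA, 5.52 and 4.38 in MTX, 4.64 and 4.66 in PLA, 6.33 and 5.72 in MS and 5.39 and 4.44 in ANE. MS at 34 days had the highest mean (6.02) and CIA T0 the lowest (4.57), without overlap between these groups, while all 11 pairs of neighbouring groups overlapped. Non-overlap over all miRNAs was not counted, and 48.6% of them had an unadjusted limma p under 0.05 between these 2 groups. miR-99b, the cluster neighbour of miR-125a-5p, was detected on both arrays of MS at 34 days (4.74 and 3.58) and of ANE at 1 hour (3.73 and 3.09). It was also detected on 1 array each of MS at 1 hour (4.46), PLA at 1 hour (3.44), NOCIA at 34 days (3.41) and MTX at 34 days (3.23). On the other arrays miR-99b was not detected and carries no measured level.

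miR-125a-3p, the other strand of the miR-125a hairpin, read 3.26 and 4.42 in NOCIA T0, where fewest probes were summed, and 5.60 and 4.51 in CIA T0. At 1 hour it read 5.02 and 5.99 in NOCIA, 5.55 and 5.26 in MTX, 5.67 and 6.27 in PLA, 4.69 and 5.22 in MS and 5.12 and 5.45 in ANE. At 34 days it read 4.33 and 5.37 in NOCIA, 5.19 and 5.67 in MTX, 5.43 and 5.31 in PLA, 5.30 and 5.22 in MS and 5.45 and 5.52 in ANE. NOCIA T0 stood lowest with a mean of 3.84 and PLA at 1 hour highest with 5.97. All 11 neighbouring pairs overlapped.

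**Figure D1:**
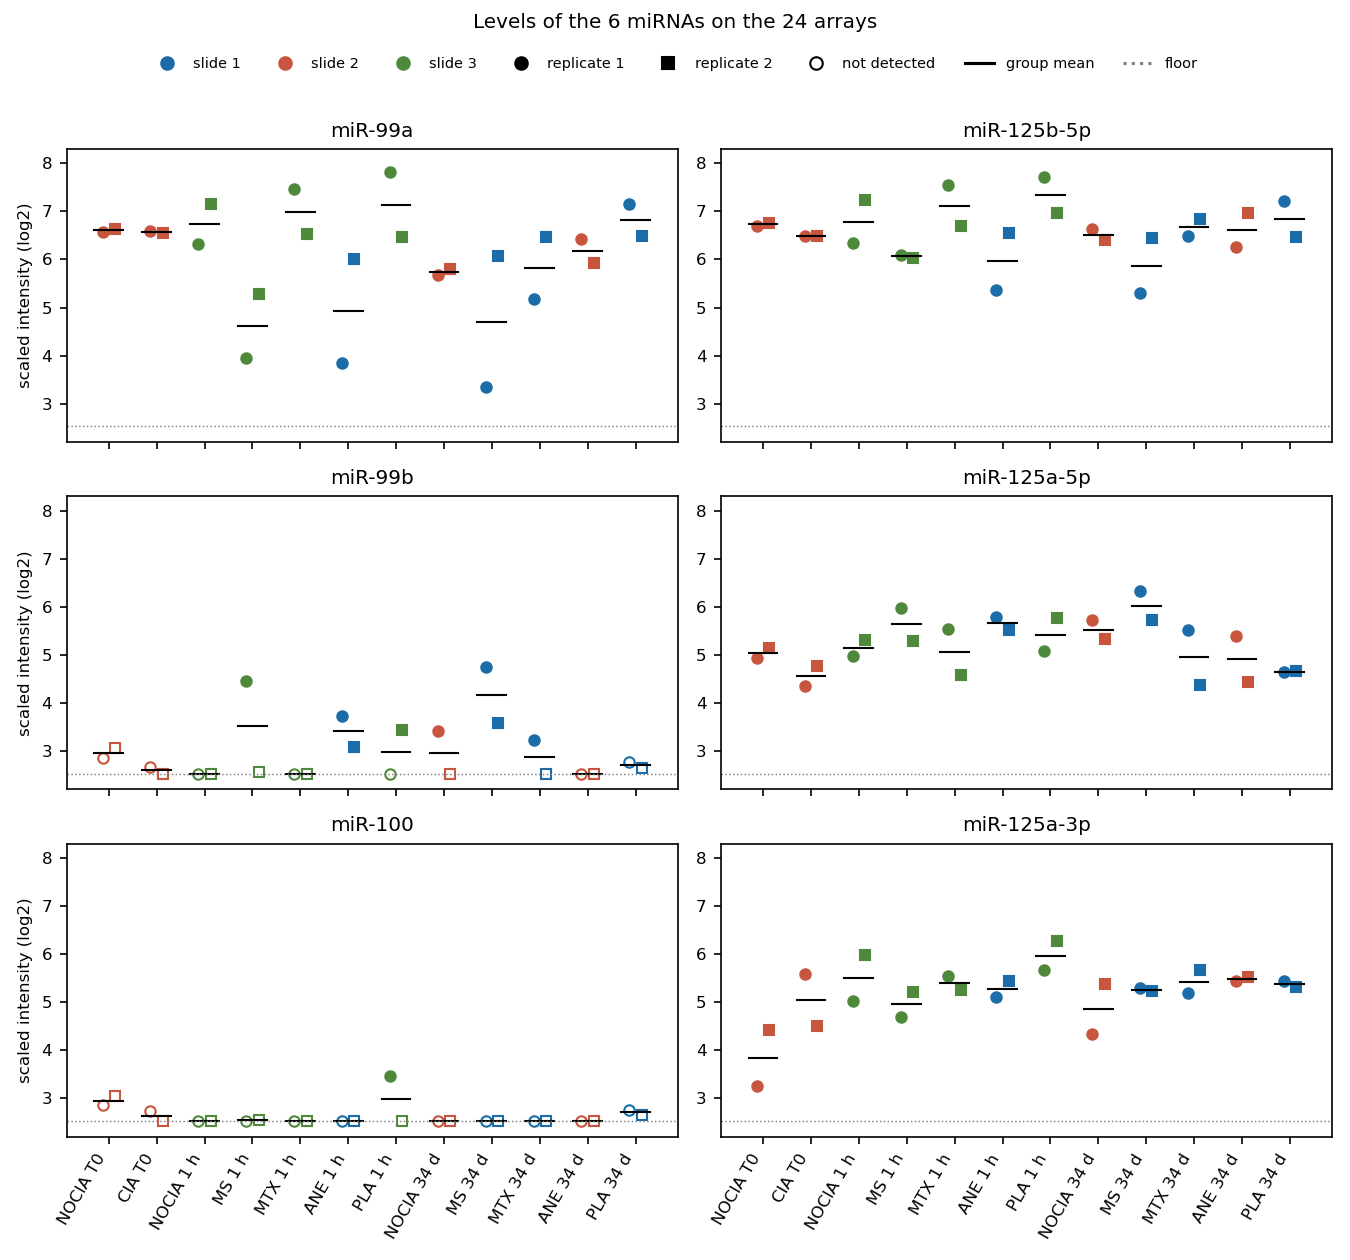
Scaled intensity (log2, y axis) of the 6 miRNAs in the 12 groups (x axis), with a point for each array coloured by slide, an open point where the miRNA was not detected, a bar at the mean of the 2 arrays and a dotted line at the floor of 2.53. miR-99a spans 3.34 to 7.82, with its 3 lowest arrays in MS and ANE, while miR-100 has 1 filled point.

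The lowest mean of miR-99a was in MS at 1 hour and the highest mean of miR-125a-5p in MS at 34 days. Across all comparisons of the members 1 passed its test, miR-125a-5p in MS at 34 days against CIA T0. The design first asks whether the members differed among the groups at all. In limma's F test over the 12 groups none of the 5 members tested passed an adjusted p of 0.05, against 2.38% of all 210 miRNAs tested. Adjusted p ran from 0.328 for miR-125a-3p to 0.412 for miR-125b-5p and miR-99b. In an F test of the differences within slides the adjusted p was 0.486 for all 5 members, and 1.9% of all miRNAs passed.

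In the 10 comparisons within a slide, no member passed in 50 member comparisons, against 0.286% of all miRNA comparisons. In the 8 comparisons across slides 1 of 40 passed, against 3.04% of all. At an unadjusted p of 0.05, 17 of the 90 member comparisons passed (18.9%), against 11.4% over all 210 miRNAs. The 20 changes that had an unadjusted p under 0.05 or a fold over 2 are given by member next. Of these 14 involve MS, which is in 5 of the 18 comparisons. At an unadjusted p of 0.05 those 5 held 13 of the 17 of the members (76.5%) and 270 of the 430 of all miRNAs (62.8%). The other 70 lay between -0.96 and 0.92 on the log2 scale.

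miR-99a was lower in MS than in PLA on the same slide, with differences of -2.51 (SE 0.85, adjusted p = 0.245) at 1 hour and -2.12 (SE 0.85, adjusted p = 0.0845) at 34 days on the log2 scale, and neither passed. Against CIA T0 on another slide the differences were -1.94 (SE 0.85, adjusted p = 0.366) for MS at 1 hour, -1.86 (SE 0.85, adjusted p = 0.096) for MS at 34 days and -1.64 (SE 0.85, adjusted p = 0.287) for ANE at 1 hour. MS against MTX at 34 days differed by -1.12 (SE 0.85, adjusted p = 0.443) and MTX against PLA at 34 days by -1.0 (SE 0.85, adjusted p = 0.922). With all probes summed the differences of MS from PLA were -2.51 and -1.87, those from CIA T0 -1.94, -1.61 and -1.40 and that from MTX -0.87, in the same order. Single arrays carried much of these values. Without replicate 1 of MS at 1 hour, ANE at 1 hour and MS at 34 days the differences from CIA T0 were -1.28 for MS at 1 hour, -0.50 for MS at 34 days and -0.57 for ANE at 1 hour. Those from PLA were then -1.85 at 1 hour and -0.76 at 34 days, and that from MTX at 34 days turned to 0.24. This omission, too, was chosen with the values known, and leaving out the lowest arrays of miR-99a must raise its MS and ANE values. Without MS at 34 days replicate 2 instead, the difference from PLA at 34 days was -3.48. Wherever an omission leaves a group 1 array, the fit takes its spread from the other groups and assumes that the lone array varies like them. miR-125b-5p had 1 change of this size, between MS and PLA at 1 hour, of -1.28 (SE 0.48, adjusted p = 0.354). With all probes summed it was -1.20.

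miR-125a-5p rose in MS at 34 days against CIA T0, by 1.46 (SE 0.43, adjusted p = 0.0405), which is 2.74-fold and the single member call. In that comparison 40 of the 210 miRNAs passed (19%) and the median of all miRNAs was 0.16. The groups lay on slides 1 and 2, so the slide and the group cannot be told apart. Both CIA T0 arrays were summed over 1 probe and both MS arrays over 2, and with all probes summed the difference was 1.00 (adjusted p = 0.0394). Without MS at 34 days replicate 1 it was 1.15 (adjusted p = 0.464). The call was also lost without either array of CIA T0, NOCIA T0 or NOCIA at 34 days, with the 75th percentile over all miRNAs (adjusted p = 0.182), with quantile normalisation (adjusted p = 0.0959), with no filter on detection (adjusted p = 0.132) and in a fit of only these arrays (adjusted p = 0.174). Without scaling the difference was 2.65, where the median of all miRNAs was 1.32. With normexp background correction it turned to -0.22, and over its 39 alternatives the adjusted p ran from 0.0101 to 0.464. Within slide 1, miR-125a-5p in MS at 34 days differed from PLA by 1.38 (SE 0.43, adjusted p = 0.0622) and from MTX by 1.07 (SE 0.43, adjusted p = 0.259), and neither passed. There 40% and 17.6% of all miRNAs had an unadjusted p under 0.05. Against CIA T0, MS at 1 hour differed by 1.07 (SE 0.43, adjusted p = 0.364) and ANE at 1 hour by 1.09 (SE 0.43, adjusted p = 0.263). With normexp the difference from PLA turned to -0.28, and those of MS and ANE at 1 hour from CIA T0 to -0.26 and -0.0507. With all probes summed the differences from PLA and MTX were 0.88 and 0.84, both PLA arrays having been summed over 1 probe, and those from CIA T0 at 1 hour were 0.62 and 0.64.

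miR-99b was brighter in MS at 34 days than in CIA T0, where no array detected it, by at least 2.71-fold and with a fitted difference of 1.56 (SE 0.53, adjusted p = 0.0523). Against PLA at 34 days, again not detected, the bound was at least 2.44-fold and the fitted difference 1.45 (SE 0.53, adjusted p = 0.0701). For this bound each array without detection was given its lowest detected signal, or the listed value of miR-99b if that was higher. With normexp the fitted values turned to -0.63 (limma adjusted p = 0.0306) and -0.70 (limma adjusted p = 0.02) in the same order. Both passed in the opposite direction. The medians of all miRNAs were then -0.65 and -0.70, and 136 of 210 miRNAs passed in each comparison. The 2 MS arrays differed in these values. With replicate 2 alone, leaving out the array that stood apart, the fitted differences of miR-99b were 0.98 (adjusted p = 0.477) from CIA T0 and 0.87 (adjusted p = 0.585) from PLA, and the bounds were at least 1.81-fold and 1.63-fold. With the array that stood apart alone, where MS is 1 array, the differences of miR-99b were 2.15 and 2.03. The differences from PLA with that array alone were 1.68 for miR-125a-5p, -3.48 for miR-99a and -1.53 for miR-125b-5p. With all probes summed the values of miR-99b were 1.5 (adjusted p = 0.0381) from CIA T0 and 1.43 from PLA. Against MTX at 34 days, where 1 array of 2 detected it, the difference of miR-99b was 1.28 (SE 0.53, adjusted p = 0.259), and 1.01 with all probes summed. The third member of the cluster, let-7e, read 7.98 and 7.51 in MS at 34 days and 6.63 and 6.95 in CIA T0, a difference of 0.95 (SE 0.31, adjusted p = 0.0429) that passed. From PLA and MTX at 34 days let-7e differed by 0.85 (SE 0.31, adjusted p = 0.0701) and 0.80 (SE 0.31, adjusted p = 0.259). miR-10a-5p, of a related family, differed in MS at 34 days by 1.14 (SE 0.45, adjusted p = 0.0621) from CIA T0 and by 1.32 (SE 0.45, adjusted p = 0.0622) from PLA.

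The larger values of miR-125a-3p were mostly against NOCIA T0. CIA T0 exceeded it by 1.21 (SE 0.46, adjusted p = 0.353), NOCIA at 34 days by 1.01 (SE 0.46, adjusted p = 0.695) and, across slides, NOCIA at 1 hour by 1.66 (SE 0.46, adjusted p = 0.104). None passed. These differences moved with the number of probes summed, which was 1 and 2 of 4 on the NOCIA T0 arrays. Without NOCIA T0 replicate 2 that group is the 1 array with 1 of 4 probes summed, and the last difference was then 2.24 (adjusted p = 0.0263). With all 4 probes summed they were 0.25, 0.05 and 0.54 in the same order. With normexp the first and second turned to -0.0923 and -0.39. MS minus PLA at 1 hour was -1.01 (SE 0.46, adjusted p = 0.507), with all 4 probes summed on these 4 arrays.

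Whether a change differed between times or arms was tested as a difference between changes. No member passed in the 3 such contrasts, against 0.159% of all, and the smallest adjusted p was 0.213, for miR-125a-5p. The difference between MS and PLA was greater at 34 days than at 1 hour by 1.16 (SE 0.61) for miR-125a-5p. Both PLA arrays at 34 days were summed over 1 of its 2 probes and both MS arrays over 2. With all probes summed the 34 day difference was 0.88, against 1.38 as fitted, and the contrast is not given. For miR-99a, which was lower in MS at both times, the same contrast of MS and PLA was 0.39 (SE 1.20). The mean of miR-125a-5p also went up in untreated NOCIA, from 5.05 at T0 to 5.53 at 34 days. Its change from CIA T0 to MS at 34 days exceeded that of NOCIA by 0.98 (SE 0.61, limma adjusted p = 0.466), which did not pass. For miR-99a the mean went down in untreated NOCIA, from 6.61 at T0 to 5.73 at 34 days. The change of miR-99a from CIA T0 to MS at 34 days minus that of NOCIA was -0.99 (SE 1.20, limma adjusted p = 0.619), which did not pass.

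**Figure D2:**
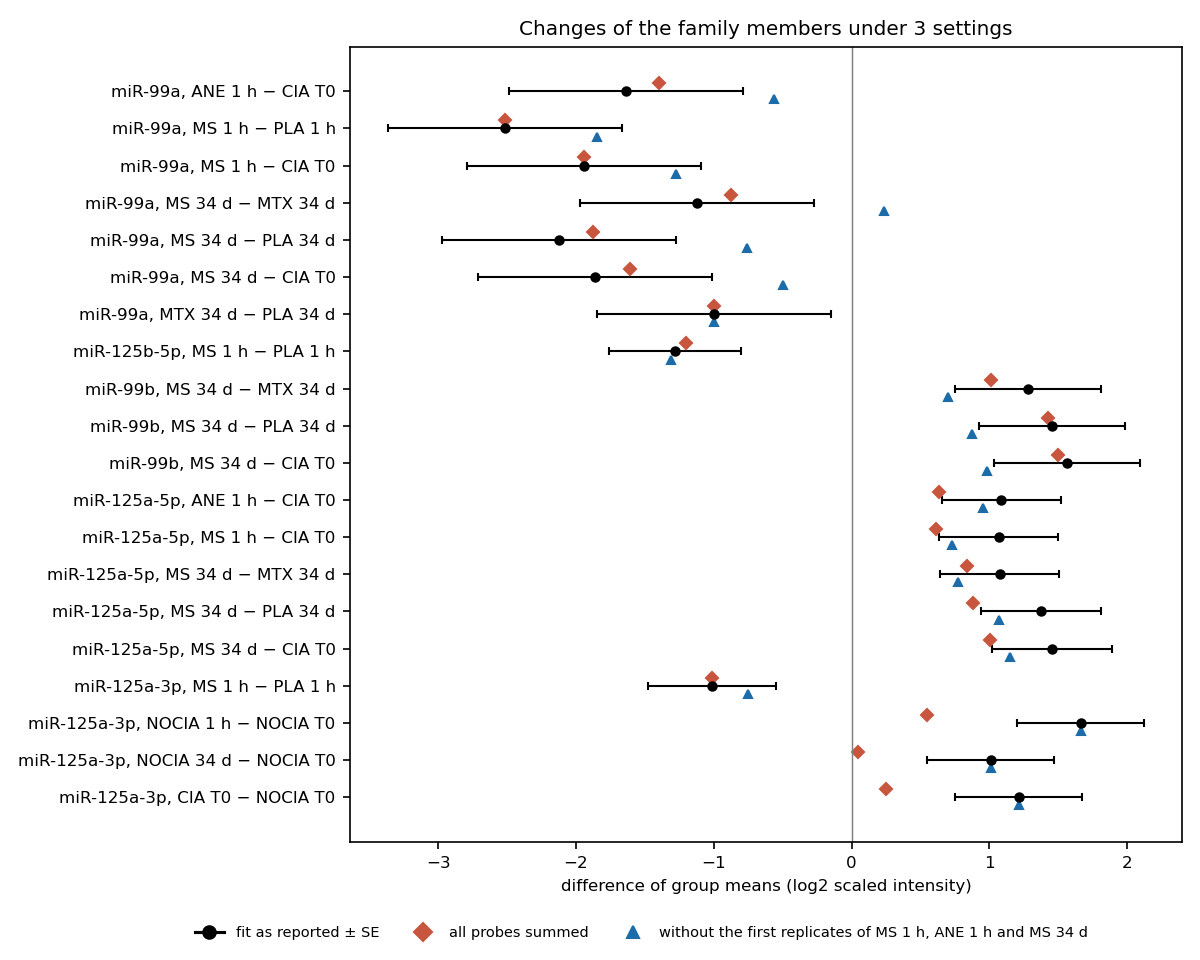
Differences between group means (log2 scaled intensity, x axis) for the 20 changes named in the text (y axis), as fitted (black, with the SE), with all probes summed (diamonds) and without the first replicates of MS at 1 hour, ANE at 1 hour and MS at 34 days (triangles). miR-99a in MS rises without these arrays, as it must since they are its lowest, and miR-125a-3p against NOCIA T0 moves toward 0 with all probes summed.

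Cluster partners, strands and seed relatives were then compared over arrays. Of 13 pairs 9 had at least 6 arrays that detected both, and the 4 pairs left out hold miR-100. P-values are two-sided, from 100000 permutations or exact below 10 arrays, and adjusted over the 9 pairs. The smallest value that the 100000 permutations can give is 1e-05. Arrays of one group share their treatment and slide, while the permutations exchanged all arrays freely, so these p-values can be too small.

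On chromosome 1, let-7e and miR-125a-5p rose and fell together over the 24 arrays, with r = 0.91 (permutation p = 1e-05, adjusted p = 4.5e-05) and a Spearman's rho of 0.92 (permutation p = 1e-05, adjusted p = 9e-05). The replicate higher in let-7e was also higher in miR-125a-5p in 12 of 12 groups. Within slides 1, 2 and 3 r was 0.97, 0.95 and 0.85, and without the 2 arrays farthest from the median of let-7e it was 0.87. On the 8 arrays that detected miR-99b, its level went with miR-125a-5p, where by the exact permutation test r = 0.95 (permutation p = 0.000347, adjusted p = 0.00104) and Spearman's rho was 0.90 (permutation p = 0.00456, adjusted p = 0.0137). With let-7e, also exact, r = 0.78 (permutation p = 0.0155, adjusted p = 0.0279) and Spearman's rho was 0.79 (permutation p = 0.0279, adjusted p = 0.0628). Without the 2 farthest arrays r was 0.88 and 0.61. No slide held 6 such arrays, so within-slide values cannot be given.

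On chromosome 11, miR-99a and miR-125b-5p went together over the 24 arrays, with r = 0.88 (permutation p = 1e-05, adjusted p = 4.5e-05) and a Spearman's rho of 0.77 (permutation p = 4e-05, adjusted p = 0.00018). The replicate order was alike in 9 of 12 groups. Within slides 1 and 3 r was 0.95 and 0.89, and within slide 2 it was -0.11, so the relation did not hold there. miR-99a spanned 5.68 to 6.64 on slide 2, against 3.34 to 7.16 on slide 1 and 3.96 to 7.82 on slide 3. Without the 2 farthest arrays r was 0.77, and without the 3 arrays named above it was 0.78. let-7c, between them on the chromosome, stayed within 11.07 to 11.67. Its r was -0.03 with miR-99a (permutation p = 0.905, adjusted p = 0.967, rho = -0.05 with permutation p = 0.831). Within slides 1, 2 and 3 r was -0.73, -0.48 and 0.80, and without the 2 farthest arrays it was 0.46. With miR-125b-5p the r of let-7c was -0.0093 (permutation p = 0.967, rho = 0.0974 with permutation p = 0.649), with -0.72, 0.29 and 0.75 within the slides and -0.27 without the 2 farthest arrays. RefSeq has a second let-7c gene on chromosome 7.

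The strands of the miR-125a hairpin did not go together, with r = -0.02 (permutation p = 0.911, adjusted p = 0.967) and a Spearman's rho of -0.17 (permutation p = 0.411, adjusted p = 0.529). Within slides 1, 2 and 3 r was -0.65, -0.26 and 0.07, and without the 2 farthest arrays 0.0047. The replicate order was alike in 5 of 12 groups. Without scaling r was 0.56 (adjusted p = 0.00853), so this result depends on the scaling. Among seed relatives, miR-99a and miR-99b ran opposite ways on the 8 arrays that detected both, where by the exact permutation test r = -0.81 (permutation p = 0.0114, adjusted p = 0.0256) and Spearman's rho was -0.60 (permutation p = 0.132, adjusted p = 0.198). Without the 2 farthest arrays r was -0.76. Of these 8 arrays 3 are those that stood apart, and 5 without them are too few. The pair did not pass without scaling (r = -0.45, adjusted exact permutation p = 0.249), in the authors' log2 table (r = -0.69, adjusted p = 0.108) or with all probes summed (r = -0.71, adjusted p = 0.0698). miR-125a-5p and miR-125b-5p, which share a seed, had r = -0.43 (permutation p = 0.037, adjusted p = 0.0555) and a Spearman's rho of -0.38 (permutation p = 0.0686, adjusted p = 0.124). Within slides 1, 2 and 3 r was -0.79, -0.37 and -0.09, without the 2 farthest arrays -0.32, and without the 3 arrays that stood apart -0.05. The pair passed with the 75th percentile over all miRNAs (r = -0.58, adjusted p = 0.00576), in the authors' log2 table (r = -0.53, adjusted p = 0.0135) and with all probes summed (r = -0.55, adjusted p = 0.0125), and r was 0.31 without scaling.

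**Figure D3:**
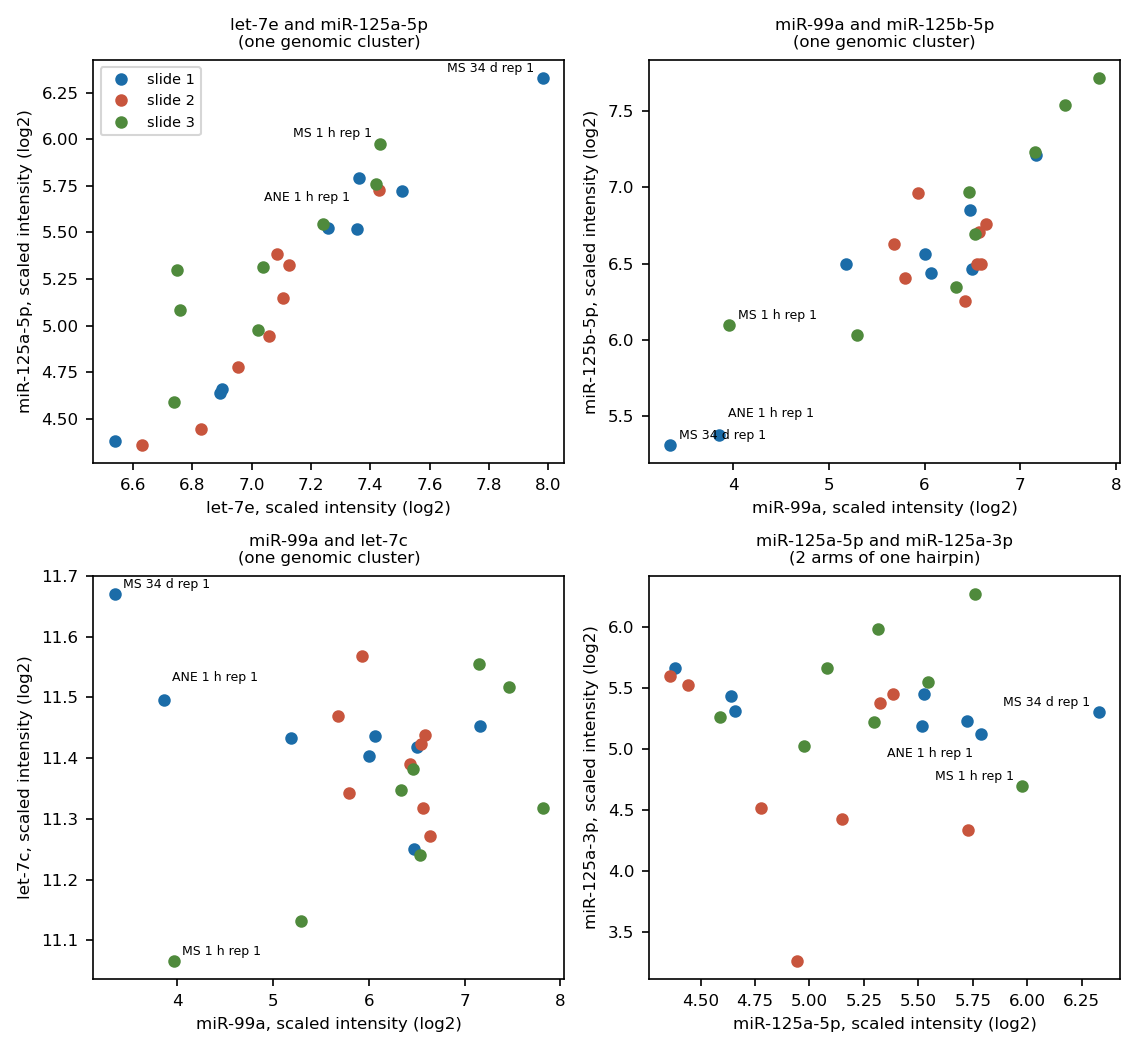
Scaled intensity (log2) of 4 pairs of miRNAs on the 24 arrays, with a point for each array coloured by slide and the 3 arrays that stood apart named. let-7e and miR-125a-5p lie along a line (r = 0.91), miR-99a and miR-125b-5p spread mainly on slides 1 and 3 (r = 0.88), and the other pairs show no line (r = -0.03 and -0.02).

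The balance between partners was tested as the difference of their log2 levels among the 12 groups, for the 6 pairs detected on all arrays. No pair passed after adjustment over the 6 pairs (permutation test, adjusted p from 0.194 to 0.217), and 1 had an unadjusted p under 0.05. This was let-7e against miR-125a-5p, where groups held 72.6% of the variance (permutation p = 0.0436). With labels permuted within slides only, its p was 0.0584. The difference between miR-125a-5p and miR-125a-3p ran over the arrays from -1.28 to 1.68 (permutation p = 0.162). The upper end was NOCIA T0 replicate 1, where 1 of 4 probes of miR-125a-3p was summed. With all probes summed that array gave 0.59 and the arrays ran from -0.80 to 1.28.

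The 4 members detected on all arrays were correlated with 3 markers of blood cell types, which were picked from the fixed marker list after values were seen. The adjusted p-values do not cover that choice, nor that arrays of one group share their treatment and slide. Correlations over arrays with the other markers of the list are not given. These relations are given with the reported scaling only, and how they depend on the scaling was not tested. miR-150 and miR-342-3p are abundant in lymphocytes and miR-223 in myeloid cells. Over the 24 arrays, and adjusted over 12 relations, miR-125a-5p ran against miR-150, with r = -0.78 (permutation p = 1e-05, adjusted p = 0.00012, rho = -0.83, permutation p = 1e-05, adjusted p = 0.00012). Within slides 1, 2 and 3 r was -0.84, -0.71 and -0.81, and without the 2 farthest arrays -0.74. With miR-342-3p r was -0.75 (permutation p = 3e-05, adjusted p = 0.00018, rho = -0.74 with permutation p = 0.0001). Within the slides it was -0.84, -0.74 and -0.84, and -0.68 without the 2 farthest arrays. With miR-223 it ran the same way, with r = 0.65 (permutation p = 0.00036, adjusted p = 0.00108, rho = 0.64, permutation p = 0.00072, adjusted p = 0.00288), 0.82, 0.89 and 0.68 within the slides and 0.59 without the 2 farthest. miR-99a went with miR-150, with r = 0.75 (permutation p = 0.00032, adjusted p = 0.00108, rho = 0.53, permutation p = 0.00946, adjusted p = 0.0227). Within the slides r was 0.86, 0.19 and 0.67, and without the 2 farthest arrays it fell to 0.43, so much of that relation rests on these arrays, which are MS at 1 hour replicate 1 and MS at 34 days replicate 1. With miR-342-3p miR-99a had r = 0.63 (permutation p = 0.00141, adjusted p = 0.00338, rho = 0.54, permutation p = 0.00688, adjusted p = 0.0206), with 0.70, 0.41 and 0.65 within the slides and 0.32 without the 2 farthest arrays. With miR-223 it had r = -0.50 (permutation p = 0.0127, adjusted p = 0.0217, rho = -0.42, permutation p = 0.0409, adjusted p = 0.0818), with -0.66, -0.58 and 0.04 within the slides and -0.40 without the 2 farthest. miR-125b-5p and miR-150 had r = 0.56 (permutation p = 0.0061, adjusted p = 0.0122, rho = 0.35, permutation p = 0.0967, adjusted p = 0.166), with 0.29 without the 2 farthest arrays and 0.80, 0.45 and 0.32 within the slides. miR-125b-5p did not pass with miR-342-3p (r = 0.38, permutation p = 0.064, adjusted p = 0.0853) or with miR-223 (r = -0.40, permutation p = 0.0545, adjusted p = 0.0818). For miR-125a-3p r with the 3 markers lay between -0.06 and 0.10 (the smallest permutation p = 0.641). miR-126, abundant in platelets and endothelium, was detected on all 24 arrays. It read 7.58 and 6.71 in MS at 34 days, against 6.38 and 5.33 in PLA at 34 days and 6.07 and 5.89 in CIA T0, so the MS arrays lay above both groups. The share of all miRNAs that did so was not counted. miR-126 was highest on the 3 arrays that stood apart (7.26 to 7.58). The part of cell makeup in the changes above was not tested.

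**Figure D4:**
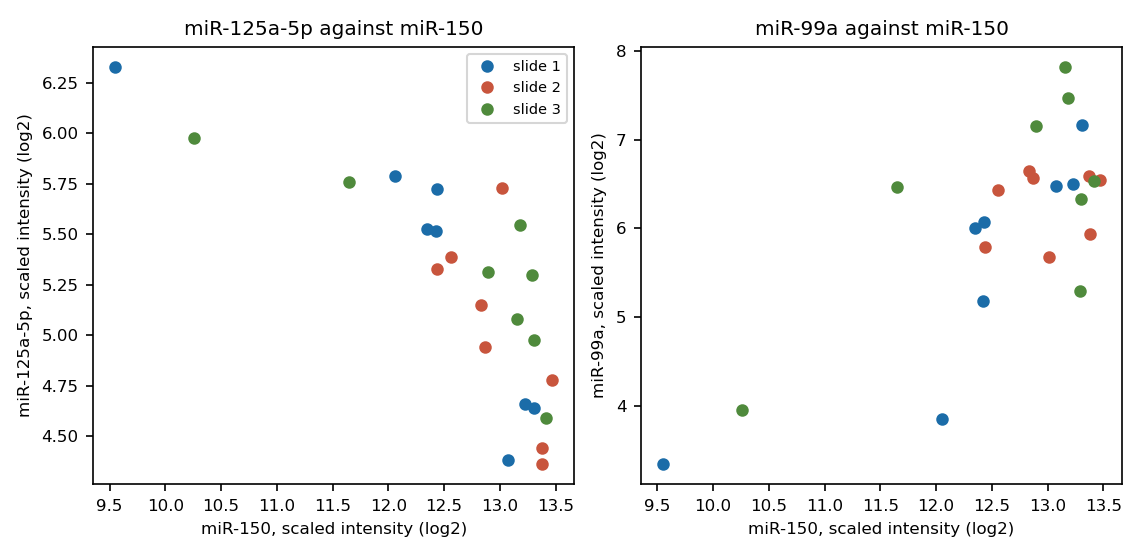
Scaled intensity (log2) of miR-125a-5p (left, y axis) and miR-99a (right, y axis) against miR-150 (x axis) on the 24 arrays, coloured by slide. miR-125a-5p falls as miR-150 rises (r = -0.78), and the 2 arrays with the lowest miR-150 (9.55 and 10.26) have miR-99a at 3.34 and 3.96.

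Over the 12 group means, the profile of each member was set against those of the 131 other miRNAs detected on all arrays. This is a description over means that share slides and scaling. The profiles most like miR-99a were those of miR-125b-5p (r = 0.93), miR-532-3p (r = 0.91) and miR-1224 (r = 0.86). For miR-125b-5p they were miR-99a (r = 0.93), miR-532-3p (r = 0.81) and miR-664 (r = 0.79). The most unlike were miR-130a (r = -0.85) and the platelet marker miR-126 (r = -0.81) for miR-99a, miR-130a (r = -0.74) and miR-20b-5p (r = -0.72) for miR-125b-5p, miR-146a (r = -0.91) and miR-150 (r = -0.90) for miR-125a-5p, and miR-181b (r = -0.31) and miR-181a (r = -0.22) for miR-125a-3p. Most like miR-125a-5p were miR-425 (r = 0.94), miR-328a (r = 0.94) and miR-17-5p (r = 0.92), and for miR-125a-3p miR-30b-5p (r = 0.63), miR-3559-5p (r = 0.59) and miR-664 (r = 0.58). The cluster partners miR-99a and miR-125b-5p thus headed each other's order, while let-7e was not among the 3 nearest profiles of miR-125a-5p.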

How the data were processed

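Per the labels, PBMC came from a Ficoll gradient, and RNA was extracted with a column kit in 1 batch and given a Cy3 label. The file headers name Agilent Feature Extraction 10.7.3.1 as the reader of the images. The authors deposited linear intensity values of each array, corrected for background and not yet set against other arrays. The total intensity of a miRNA sums its detected probes: for the 220 detected totals of members and relatives a set of probes matched to within 0.1%. All 12046 values of undetected miRNAs equalled their listed error. A second deposited table holds the authors' log2 values. Its normalisation is not stated, its column medians ran from 2.90 to 2.92, and its 24 columns each correlated best with their own array. The submitters' processing notes name RMA.

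Total intensity was scaled to a common 75th percentile over the 132 miRNAs detected on all arrays (factors 0.452 to 1.42), floored at 5.76 and put on the log2 scale. Tests covered the 210 miRNAs that 3 or more arrays detected, in 1 model of 12 group means (limma 3.58.1, R 4.3.3, 12 residual degrees of freedom, two-sided, Benjamini-Hochberg over the 210), and an adjusted p under 0.05 is a call. The fit was also run on simulated data with independent noise, without slide effects or arrays that stand apart. That run cannot show how the fit behaves with these, and its outcome is not given. Since each group lies on 1 slide, no slide term was fitted. Named changes are those that had either an unadjusted p under 0.05 or a fold over 2. The members, lists and tests were chosen with earlier results of these data known. Alternatives were other scalings, spot summaries, filters and floors, the authors' table, a replicate block, the study's threshold (unadjusted p under 0.05 and a fold over 2, in miRNAs detected on every array compared) and leaving out arrays. For normexp (offset 50) the median spot signal was used, not the mean that was planned. The numbers of the replicates did not pair the samples: over the 66 pairs of groups, deviations of same-numbered arrays correlated from -0.77 to 0.84 (median -0.03), with 26 pairs over 0.1.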

Additional observations from a re-analysis of the deposited data

Results flagged for a closer look

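The fitted differences of miR-125b-5p from CIA T0 had unlike signs among the 4 arms at 1 hour. Its level was higher on every array of MTX (by 0.62 on the log2 scale) and of PLA (by 0.85) and lower on every array of MS (-0.43) than on the CIA T0 arrays. In ANE, the fourth arm, the difference was -0.53, and its arrays (5.37 and 6.56) lay on both sides of the CIA T0 arrays. The CIA T0 arrays lay only 0.0016 apart, which leaves little room for overlap. How many of all miRNAs did not overlap in these comparisons was not counted. Both CIA T0 arrays were summed over 1 of the 2 probes of miR-125b-5p, and both PLA arrays over 2. All of these values share the CIA T0 arrays, which lay on another slide than the 1 hour arrays. The difference between MS and PLA is the comparison within slide 3 given above (-1.28, adjusted p = 0.354, limma), which did not pass, and that between MS and MTX was not tested. None of these changes from CIA T0 passed.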

How the results depend on the processing

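No member passed either F test, or a difference between changes, under any alternative run. Within slides, no member passed in 50 comparisons. The count was 2 without scaling, 4 with normexp on the median spot signal, 3 with no filter on detection, 1 with only miRNAs detected on all 24 arrays, 1 in fits of only the arrays compared and 8 at the study's threshold. The call in fits of only the arrays compared was miR-99a, lower in NOCIA at 34 days than in NOCIA T0 (-0.87). Of 2100 comparisons of all miRNAs, 6 passed in the fit as reported. Passing were 129 without scaling, 136 with normexp, 18 in fits of only the arrays compared and 52 at the study's threshold. With no filter 1488 passed over 677 miRNAs, and with detection on all 24 arrays 36 over 132. In MS against PLA at 34 days, 124 of 210 miRNAs passed without scaling, 136 with normexp and 412 of 677 with no filter. Across slides 1 passed. The count was 3 without scaling, 0 with the 75th percentile over all miRNAs, 0 with quantile normalisation, 2 with the mean spot signal, 4 with normexp, 2 in the authors' log2 table, 2 with undetected values at the floor, 0 in fits of only the arrays compared, 6 at the study's threshold, 2 with all probes summed and 0 without the 3 arrays that stood apart. Of 1680 comparisons of all miRNAs across slides, 51 passed in the fit as reported. In the order above, up to all probes summed, 139, 2, 14, 55, 136, 70, 72, 8, 61 and 52 passed. With the replicate block 2 member comparisons passed, the second being miR-99b in MS at 34 days against CIA T0, and the block changed no other call of a member. Over all miRNAs 72 then passed. Leaving out 1 array at a time leaves a group of 1 array, so counts of calls are not given for these fits. Members passed within slides only without MS at 34 days replicate 2 or an array of MS at 1 hour. Calls over all miRNAs rose there too. Across slides, miR-99b in MS at 34 days against CIA T0 passed without MS at 34 days replicate 2. It also passed without an array of MS at 1 hour, PLA at 1 hour or MTX at 34 days. The call across slides was lost without either CIA T0 array, without MS at 34 days replicate 1, without either NOCIA T0 or either NOCIA 34 day array (adjusted p 0.0513 to 0.464), with differences of 1.15 to 1.66.

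With normexp, signs turned: for MS at 34 days, miR-99b was -0.70 against PLA, -0.23 against MTX and -0.63 against CIA T0, and miR-125a-5p was -0.28 against PLA and -0.22 against CIA T0. Against CIA T0 miR-125a-5p was also -0.26 for MS at 1 hour and -0.0507 for ANE at 1 hour. miR-125a-3p was -0.0923 for CIA T0 and -0.39 for NOCIA at 34 days, both against NOCIA T0, and the latter was -3.19e-05 with the mean spot signal. The member calls with normexp were all of lower values in MS at 34 days, against PLA and against CIA T0. They were miR-99a, miR-99b, miR-125a-3p and miR-125b-5p, and those of miR-99b had the opposite sign to the fit as reported. The causes were not tested. miR-99a in MS against MTX at 34 days turned to 0.24 without MS at 34 days replicate 1, and also without all 3 arrays, and was -2.48 without MS at 34 days replicate 2.

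Of the correlations 5 of 9 passed, and 2 without the 4 MS arrays or without the 3 arrays that stood apart, where the pairs with miR-99b have too few arrays. The pair of miR-99a and miR-99b was lost without scaling, in the authors' log2 table and with all probes summed. That of miR-125a-5p and miR-125b-5p passed in that table, with all probes summed and with the 75th percentile over all miRNAs. Correlations near 0 changed sign. For miR-99a and let-7c r was 0.14 with quantile normalisation, 0.0333 with all probes summed, 0.0947 as deviations from slide means and 0.18 without the 3 arrays. For let-7c and miR-125b-5p r was 0.37 without scaling, 0.0649 with the 75th percentile over all miRNAs, 0.0658 with quantile normalisation, 0.15 as deviations from slide means, 0.0188 without the MS arrays and 0.36 without the 3 arrays. For the strands of miR-125a r was 0.56 without scaling, 0.0213 with the 75th percentile over all miRNAs, 0.0192 without the MS arrays and 0.0313 without the 3 arrays. For miR-125a-5p and miR-125b-5p r was 0.31 without scaling. Of the balances between partners 0 passed, and 1 in the authors' log2 table, that of let-7e and miR-125a-5p (permutation p = 0.00824, adjusted p = 0.0494).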
